A study of Danio rerio with 6 samples.

Results

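The genes described here form a list named for the p0 and p1 domains of the ventral neural tube. That name is a label of the list and not a result of these data. The list holds the Dbx homeobox genes dbx1a, dbx1b and dbx2 and the p1 regulator prdm12b. It also holds the zinc finger genes sp8a and sp8b, and the interneuron homeobox genes evx1, evx2 and en1b. All 9 were chosen by symbol, and 8 of the 9 were found among the 30677 symbols of the files. Of these, 7 carried the listed symbol, and en1b was listed as eng1b and was matched by its RefSeq accession. The gene dbx2 was not analysed here.

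Wild-type zebrafish embryos were dissected at 14 hours post fertilisation, brain and tail were removed, and GFP-positive cells of what was left, the trunk, were sorted for RNA sequencing. The sorts came from 3 transgenic lines, TgBAC(dbx1b:GFP), TgBAC(olig2:GFP) and TgBAC(nkx2.2a:memGFP), with 2 libraries each. In these lines a bacterial artificial chromosome carries the regulatory sequence of the named gene, which drives GFP in the first pair of lines and a membrane form of GFP in the third. Each sort comes from 1 line, so line and domain cannot be told apart, nor can the form of GFP and the domain in comparisons with the nkx2.2a sort, and the labels do not say whether the libraries of a sort came from separate pools of embryos. In such bulk samples, fewer cells of a type and less RNA per cell cannot be told apart either.

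The spinal cord is laid out from ventral to dorsal in progenitor domains, each with its own set of transcription factors. The nkx2.2a domain (p3) lies most ventral, the olig2 domain (pMN) makes motor neurons, and p2, p1 and p0 follow dorsally. In mouse, Dbx1 marks p0 and keeps its progeny from taking the fate of V1 neurons, while Dbx2 reaches into neighbouring domains. V0 neurons, of which the ventral class expresses Evx1 and Evx2, arise from p0, and V1 neurons, which express En1, arise from p1.

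Depth, in fragments on transcripts, was 5.90 and 6.93 M (M, 1000000) for the dbx1b sort, 3.25 and 4.17 M for the olig2 sort, and 5.83 and 3.59 M for the nkx2.2a sort. Levels are given as CPM, reads per 1000000 mapped reads after TMM scaling for composition. A single fragment was worth 0.141 to 0.304 CPM. Where a gene had 0 fragments its level could still have reached 3 fragments, or 0.423 to 0.913 CPM depending on the library, counting error alone being considered. The neural progenitor genes sox19a and sox3 were abundant in all 6 libraries, at 458 to 847 CPM and 147 to 200 CPM. Not all neural progenitor genes were, as sox1a at 0.474 to 19.6 CPM shows. The olig2 transcript stood at 220 and 125 CPM in its own sort, against 1.80 and 4.09 CPM in the dbx1b sort, and nkx2.2a at 495 and 364 CPM in its own sort, against 0.540 and 1.27 CPM in the dbx1b sort. The gap between the olig2 and nkx2.2a sorts was smaller. There olig2 stood at 19.3 and 70.5 CPM in the nkx2.2a libraries, and nkx2.2a at 8.22 and 26.5 CPM in the olig2 libraries.

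Transcripts of dbx1b, whose regulatory sequence defined the sort, stood at 183 and 216 CPM in the dbx1b libraries, 17.0 and 9.24 CPM in the olig2 libraries, and 11.5 and 49.3 CPM in the nkx2.2a libraries. Both dbx1b libraries lay above the 4 others, and nkx2.2a library 2 was the highest of those. Since the sort selected for this gene's reporter, its level checks the labels. The mean in dbx1b cells was 199 ± 23.2 CPM (SD, n = 2), 15.2 times the 13.1 ± 5.51 CPM of olig2 cells and 6.55 times the 30.4 ± 26.7 CPM of nkx2.2a cells. By edgeR's quasi-likelihood test the log2 fold change was 3.92 ± 0.76 (SE) over olig2 cells (adjusted p = 0.296 over all genes) and 2.72 ± 0.72 over nkx2.2a cells (edgeR adjusted p = 0.554). Over nkx2.2a cells it was 4.12 when library 2 of that sort was left out and 2.01 when library 1 was, and over olig2 cells it ranged from 3.57 to 4.44 with a library left out. The order of the olig2 and nkx2.2a sorts was not settled, since their libraries overlapped (olig2 over nkx2.2a cells, -1.21, 95% interval -2.77 to 0.36).

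The paralog dbx1a, a duplicate of the same ancestral gene, was also highest in the dbx1b sort. It stood at 139 and 124 CPM in the dbx1b libraries, 2.43 and 54.0 CPM in the olig2 libraries, and 17.2 and 5.75 CPM in the nkx2.2a libraries. The dbx1b libraries lay close to each other and above the 4 others, whereas the olig2 libraries lay far apart, with library 2 the highest outside the dbx1b sort. The mean was 132 ± 10.4 CPM in dbx1b cells, against 28.2 ± 36.5 CPM in olig2 cells and 11.5 ± 8.11 CPM in nkx2.2a cells (SD, n = 2 each). The log2 fold change was 3.51 ± 1.19 over nkx2.2a cells (edgeR adjusted p = 0.725) and 2.22 ± 1.12 over olig2 cells (edgeR adjusted p = 0.559). Over olig2 cells it was 5.78 without olig2 library 2 and 1.29 without olig2 library 1. For dbx1a, too, the olig2 and nkx2.2a sorts did not separate (1.29, 95% interval -1.18 to 3.77), and the sign turned without olig2 library 2 (-2.26).

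**Figure D1:**
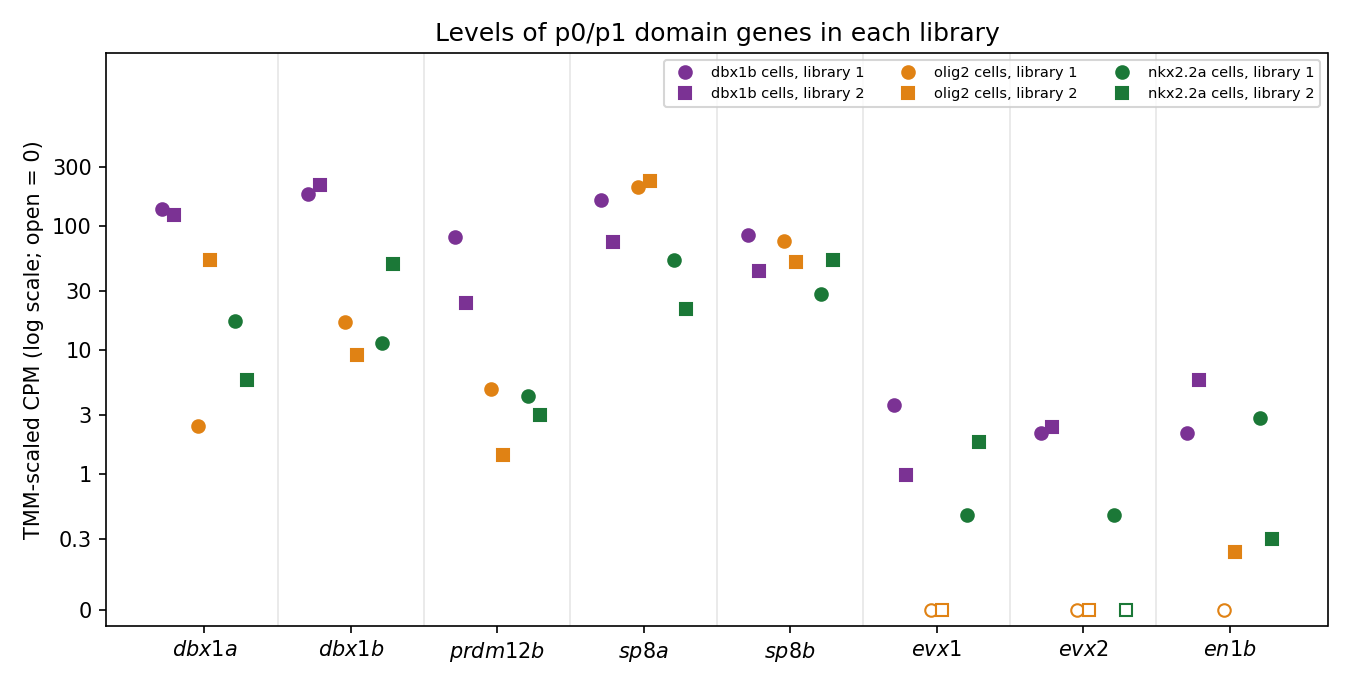
TMM-scaled CPM (log scale, with 0 drawn as open symbols at the bottom) of the 8 genes found, with 1 point for each library of the dbx1b, olig2 and nkx2.2a sorts. Both dbx1b libraries lie above all others for dbx1a, dbx1b, prdm12b and evx2, while sp8a is highest in the olig2 libraries, at 209 and 231 CPM.

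The balance between the Dbx1 paralogs was similar in both dbx1b libraries and varied widely among the other 4. FPKM is used here, since dividing the reads by transcript length (in units of 1000 bases) and by depth allows genes to be compared with each other. In the dbx1b libraries dbx1a had 78.4 and 76.3 FPKM and dbx1b had 105 and 134 FPKM, so that dbx1a made up 42.8% and 36.2% of their sum. That share was 12.3% and 85.2% in olig2 cells and 59.5% and 10.3% in nkx2.2a cells. In each ventral sort dbx1a led in a single library (olig2 library 2 and nkx2.2a library 1) and dbx1b in the other. The sources used here do not say to which transcript a read with several matches went, so a part of the reads of 1 paralog may have been counted for the other.

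The gene prdm12b encodes a PR-domain zinc finger regulator that marks p1 progenitors and, in frog embryos, limits Dbx1 and favours V1 neurons. It stood at 81.6 and 24.0 CPM in the dbx1b libraries, 4.87 and 1.42 CPM in the olig2 libraries, and 4.26 and 3.02 CPM in the nkx2.2a libraries. Both dbx1b libraries lay above the 4 others, with a wide gap between them, library 1 being the higher. The means were 52.8 ± 40.7, 3.15 ± 2.44 and 3.64 ± 0.876 CPM in dbx1b, olig2 and nkx2.2a cells (SD, n = 2 each), and the ratios of the dbx1b mean to the others 16.8 and 14.5. The log2 fold change was 4.07 ± 1.12 over olig2 cells (edgeR adjusted p = 0.424) and 3.85 over nkx2.2a cells with a 95% interval of 1.36 to 6.33 (edgeR adjusted p = 0.603). Without dbx1b library 1, the higher one, it was 2.95 and 2.72, and edgeR's p was above 0.05 before adjustment in both. In the ventral sorts prdm12b rested on 22 fragments in olig2 cells and 37 in nkx2.2a cells, and their difference was -0.22 (95% interval -2.49 to 2.05).

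The gene sp8a had another order than the Dbx1 and prdm12b genes. Sp8 proteins are zinc finger transcription factors, and in mouse Sp8 acts with Pax6 at the border between the pMN and p3 domains. Transcripts of sp8a stood at 164 and 75.3 CPM in the dbx1b libraries, 209 and 231 CPM in the olig2 libraries, and 53.8 and 21.5 CPM in the nkx2.2a libraries. The olig2 libraries were the highest, the nkx2.2a libraries the lowest, and no sort overlapped another. The mean was 220 ± 15.8 CPM in olig2 cells, against 37.7 ± 22.9 CPM in nkx2.2a cells, a ratio of 5.84, and the log2 fold change was 2.54 ± 0.59 (edgeR adjusted p = 0.508). With a library left out this value ranged from 2.02 to 3.36. In dbx1b cells the mean was 119 ± 62.5 CPM, which differed by 1.66 ± 0.57 from nkx2.2a cells (edgeR adjusted p = 0.731) and by -0.88 ± 0.56 from olig2 cells (edgeR adjusted p = 0.636). Over nkx2.2a cells it was 1.01 without dbx1b library 1 and 1.16 without nkx2.2a library 2, with edgeR's p above 0.05 before adjustment in both, and 2.45 without nkx2.2a library 1. Over olig2 cells it was -1.53 when dbx1b library 1 was left out and -0.44 when dbx1b library 2 was. Pax6a, the homeobox gene whose mouse counterpart opposes Nkx2.2, was low in the nkx2.2a sort as well, at 152 ± 15.1 CPM in dbx1b cells and 144 ± 17.3 CPM in olig2 cells, against 30.1 ± 3.65 CPM in nkx2.2a cells. Its log2 fold change over nkx2.2a cells was 2.34 ± 0.44 in dbx1b cells (edgeR adjusted p = 0.291) and 2.26 ± 0.44 in olig2 cells (adjusted p = 0.376). Its paralog pax6b stood at 139 ± 70.9 CPM in dbx1b cells and 101 ± 16.0 CPM in olig2 cells, against 93.6 ± 56.7 CPM in nkx2.2a cells, with a log2 fold change over nkx2.2a cells of 0.56 ± 0.57 in dbx1b cells (edgeR adjusted p = 0.953) and 0.11 ± 0.57 in olig2 cells (edgeR adjusted p = 0.980).

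For sp8b, the paralog of sp8a, no sort stood apart. It had 85.5 and 43.6 CPM in the dbx1b libraries, 75.8 and 51.7 CPM in the olig2 libraries, and 28.4 and 53.8 CPM in the nkx2.2a libraries. Each pair of sorts overlapped. The log2 difference between dbx1b and olig2 cells was 0.02 with a 95% interval of -1.35 to 1.39, that over nkx2.2a cells 0.65 (-0.73 to 2.03), and that of olig2 over nkx2.2a cells 0.63 (-0.75 to 2.01). These intervals leave room for differences of more than 2-fold either way between dbx1b and olig2 cells. Its 3 transcripts took similar shares of its reads in every library (26.9% to 39.8% each). By FPKM, sp8a made up 66.1% and 64.2% of the summed Sp8 level in dbx1b cells, 74.4% and 82.1% in olig2 cells, and 66.4% and 29.0% in nkx2.2a cells. In nkx2.2a library 2 alone sp8b, at 18.6 FPKM, exceeded sp8a, at 7.62 FPKM.

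**Figure D2:**
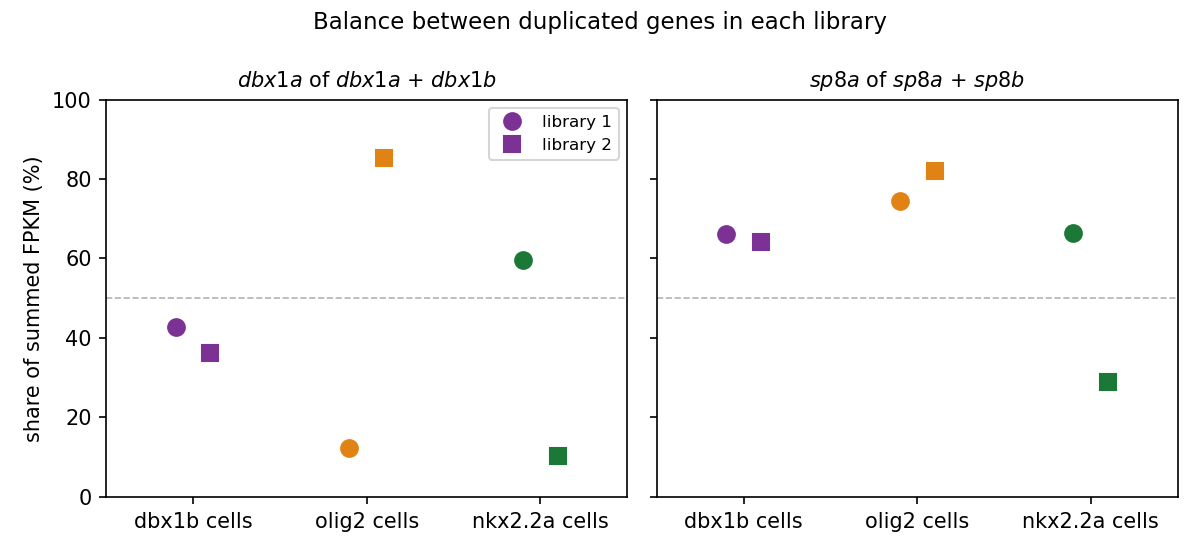
Share of the first gene in the summed FPKM of a paralog pair (left, dbx1a of dbx1a and dbx1b; right, sp8a of sp8a and sp8b), 1 point for each library, with a dashed line at 50%. The shares of dbx1a are 42.8% and 36.2% in dbx1b cells but spread from 10.3% to 85.2% in the other sorts, and sp8a leads in every library but nkx2.2a library 2.

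The neuron genes evx1, evx2 and en1b were rare in all sorts, and their values are given in fragments. The homeobox genes evx1 and evx2 mark V0 neurons, and in zebrafish they are needed for the excitatory fate of these cells. Evx1 was covered by 20 and 7 fragments in dbx1b libraries 1 and 2, by 0 and 0 in those of olig2 cells, and by 3 and 6 in those of nkx2.2a cells. Its dbx1b and nkx2.2a libraries overlapped once scaled, at 3.60 and 0.987 CPM against 0.474 and 1.81 CPM. The dbx1b mean of evx1 was 2.83 times the limit that 3 fragments per library set for olig2 cells. That ratio was taken without the error of the dbx1b counts. Over olig2 cells the 95% interval from the edgeR fit was 0.79 to 14.2 for the log2 fold change (edgeR adjusted p = 0.507). Since olig2 cells had 0 fragments of evx1, the counts alone do not fix the size of that fold change. The gene passed the filter only through the sorts in which it was detected, and on fragments in place of reads it was too rare to be tested.

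Evx2 was covered by 12 and 17 fragments in dbx1b libraries 1 and 2, by 0 and 0 in those of olig2 cells, and by 3 and 0 in those of nkx2.2a cells. The dbx1b libraries were alike, at 2.16 and 2.40 CPM, and above the rest. Its dbx1b mean was 2.81 times the limit for olig2 cells, again without the error of the dbx1b counts. Over olig2 cells the 95% interval computed from the edgeR fit was 0.28 to 14.7 for the log2 fold change (edgeR adjusted p = 0.522). With 0 fragments in olig2 cells, the counts alone do not fix the size of that fold change. The 29 fragments of dbx1b cells against the 3 of nkx2.2a cells gave a ratio of 7.37 (exact 95% counting interval 2.28 to 37.8). That interval covers counting error only. With the spread between libraries, the 95% interval from the edgeR fit was -2.29 to 8.53 for the log2 fold change over nkx2.2a cells (edgeR adjusted p = 0.915). All 3 fragments of nkx2.2a cells came from library 1.

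The gene en1b, an engrailed homeobox gene of V1 neurons that is also known from the boundary of midbrain and hindbrain, was covered by 12 and 41 fragments in dbx1b libraries 1 and 2, by 0 and 1 in those of olig2 cells, and by 18 and 1 in those of nkx2.2a cells. The dbx1b and nkx2.2a libraries overlapped, at 2.16 and 5.78 CPM against 2.84 and 0.302 CPM. The 53 fragments of dbx1b cells against the 1 of olig2 cells gave a ratio of 31.5 (exact 95% interval of the counts 5.41 to 1265). These intervals cover counting error only, and edgeR's test, which also weighs the spread between libraries, gave an adjusted p of 0.546 for dbx1b over olig2 cells. The paralog en2b (listed as eng2b), a gene of the same brain boundary, was at 13.5 and 48.1 CPM in the dbx1b libraries. It was at 5.48 and 12.8 CPM in the olig2 libraries, and 28.0 and 73.8 CPM in the nkx2.2a libraries. Its part in the en1b counts was not tested. The other engrailed paralogs had other levels. En1a (listed as eng1a) was at 0 to 0.605 CPM. En2a (listed as eng2a) was at 1.26 and 0.564 CPM in the dbx1b libraries and 4.56 and 0 CPM in the olig2 libraries. In the nkx2.2a libraries it was at 3.47 and 5.44 CPM. Of 17 brain genes, 1 was higher and 2 lower at unadjusted p under 0.05 in dbx1b over olig2 cells by edgeR. Of all genes 5.83% were higher and 3.7% lower. In dbx1b over nkx2.2a cells 1 brain gene was higher and 4 lower, against 2.67% and 3.61% of all genes. The part of brain cells in the en1b counts was not tested.

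Among the 8 genes, the Dbx1, Sp8 and prdm12b genes were well detected, whereas the neuron genes lay near the limit of detection. By FPKM in dbx1b cells the means were 119 for dbx1b, 77.3 for dbx1a, 44.5 for sp8a, 23.5 for prdm12b and 23.5 for sp8b, against 2.2 for en1b, 0.841 for evx1 and 0.632 for evx2. The order of the sorts by FPKM was that by CPM for 7 of the 8 genes. The exception was sp8b, with a mean of 23.5 FPKM in dbx1b cells and 23.8 FPKM in olig2 cells.

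All 8 genes were frequent enough to be tested among 19129 genes. For evx1, evx2 and en1b this rested only on the sorts in which they were detected. With fragments in place of reads, evx1 was too rare to be tested. The place of dbx1b was set beforehand, since the dbx1b sort was made on its reporter. The counts over the 8 genes are therefore a description and support no difference. In dbx1b over olig2 cells edgeR called 0 of the 8 at an adjusted p under 0.05, as it called 0% of all genes. At unadjusted p under 0.05, 4 of the 8 were higher (dbx1b, prdm12b, evx1 and evx2) and 0 lower, against 9.53% of all genes, 5.83% higher and 3.7% lower. With any library left out the count was lower. The number of all genes at that level fell without a dbx1b library and rose without an olig2 or nkx2.2a library. In 6 of the 8 the libraries of the sorts did not overlap with dbx1b cells on top, and in 1 (sp8a) with dbx1b cells below, against 25.4% and 18.3% of all genes.

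In dbx1b over nkx2.2a cells edgeR called 0 of the 8, against 0.00523% of all genes (nkx2.2a itself). At unadjusted p under 0.05, 4 were higher (dbx1a, dbx1b, prdm12b and sp8a) and 0 lower, against 6.27% of all genes, 2.67% higher and 3.61% lower. The count was lower without dbx1b library 1 or nkx2.2a library 2, where fewer of all genes reached that level too. It was unchanged when any of the other libraries was left out. The sorts did not overlap for 5 of the 8 with dbx1b cells on top and for 0 with dbx1b cells below, against 21% and 19.1% of all genes. In olig2 over nkx2.2a cells edgeR called 0 of the 8, against 0% of all genes. At unadjusted p under 0.05 sp8a alone was higher and 0 were lower, against 8.75% of all genes, 2.62% higher and 6.12% lower. The count was higher without olig2 library 1, olig2 library 2 or nkx2.2a library 1, where more of all genes reached that level too. Without either olig2 library the gene added was dbx1a, with opposite signs. Its log2 fold change was 2.22 without olig2 library 1 and -2.26 without olig2 library 2. The sorts did not overlap for 1 of the 8 with olig2 cells on top and for 2 (evx1 and en1b) with olig2 cells below, against 15.7% and 20% of all genes. Both of these lay at the limit of detection. For en1b, olig2 library 2 and nkx2.2a library 2 held 1 fragment each (0.237 and 0.302 CPM). For evx1, 0 fragments in the olig2 libraries allowed 0.913 and 0.711 CPM, above the 0.474 CPM of nkx2.2a library 1. In 4 of the 8 genes (dbx1a, dbx1b, prdm12b and evx2) both dbx1b libraries lay above all 4 ventral libraries, as they did in 10% of all genes tested. With 1 library left out that number was 4 to 6, against 13.7% to 21.1% of all genes.

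A pair of alternatives called some of these genes over all genes. Calls of dbx1b in its own sort only check the labels, since that sort was made on its reporter. DESeq2 called dbx1b (adjusted p = 4.4e-05) and prdm12b (adjusted p = 0.00320) higher in dbx1b than in olig2 cells, where it called 2.35% of genes higher and 1.86% lower. It called dbx1a (adjusted p = 0.0458), dbx1b (adjusted p = 0.0183) and prdm12b (adjusted p = 0.00727) higher in dbx1b than in nkx2.2a cells, against 0.887% of genes higher and 1.51% lower. It called sp8a (adjusted p = 0.00246) higher in olig2 than in nkx2.2a cells, against 0.883% of genes higher and 2.55% lower. The edgeR test without the filter on low counts called dbx1b higher in dbx1b than in olig2 cells (adjusted p = 6.9e-06, against 0.537% of genes higher and 0.544% lower). It called dbx1a (adjusted p = 9.5e-04) and dbx1b (adjusted p = 0.00502) higher in dbx1b than in nkx2.2a cells, against 0.3% of genes higher and 0.581% lower. It called sp8a (adjusted p = 0.00166) higher in olig2 than in nkx2.2a cells, against 0.181% of genes higher and 0.681% lower. The 3 comparisons share libraries and are not independent of each other.

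**Figure D3:**
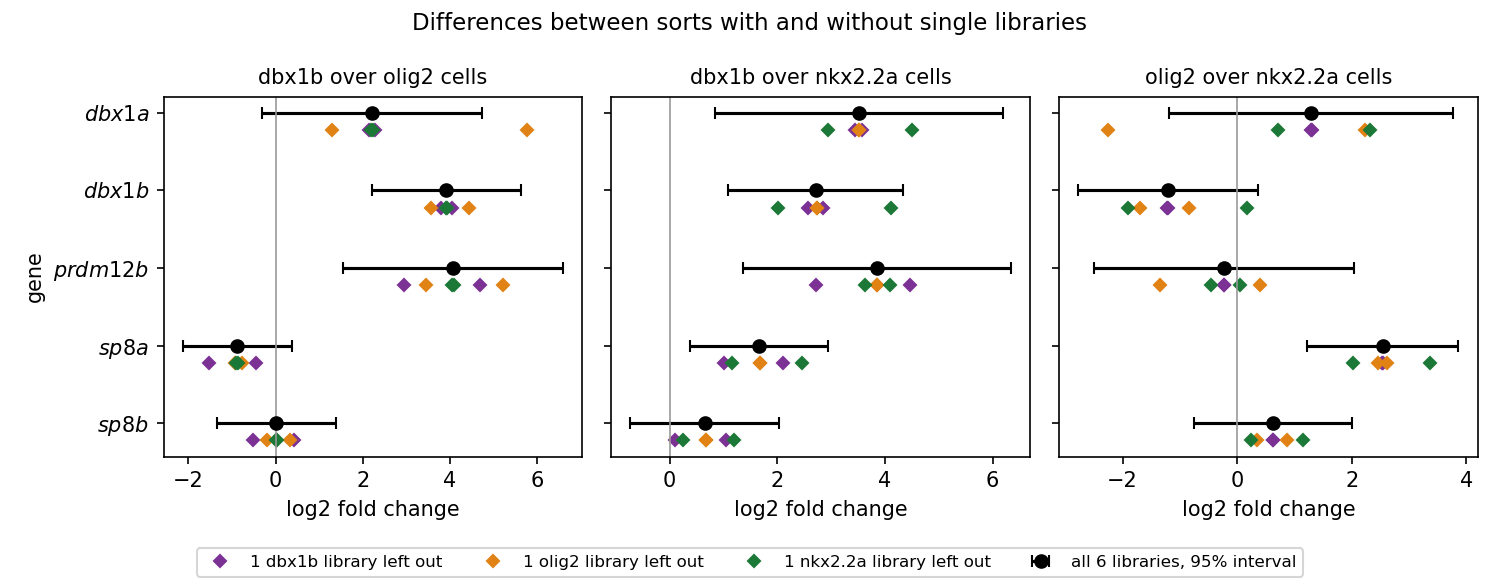
Log2 fold changes by edgeR of the 5 genes with reads in every library, for dbx1b over olig2 cells, dbx1b over nkx2.2a cells and olig2 over nkx2.2a cells. Black points and bars give the estimate from all 6 libraries with its 95% interval and coloured diamonds the estimates with 1 library left out. Those of dbx1b and prdm12b stay above 0 in both comparisons of the dbx1b sort, and dbx1a over olig2 cells lies between 1.29 and 5.78.

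The other genes of the intermediate neural tube did not follow a single pattern. Of 9 further genes listed for intermediate progenitors, 2 were higher and 1 lower at unadjusted p under 0.05 in dbx1b over olig2 cells. Their median log2 fold change was 0.46, against 0.05 for all genes. The higher ones were Iroquois homeobox genes, irx3a at 169 ± 5.31 CPM in dbx1b cells against 63.4 ± 1.53 CPM in olig2 cells, and irx5a at 48.7 ± 19.5 CPM in dbx1b cells against 8.04 ± 1.04 CPM in olig2 cells. The lower one was nkx6.2, whose mouse counterpart represses Dbx genes together with Nkx6.1, at 44.9 ± 18.0 CPM in dbx1b cells against 139.8 ± 6.71 CPM in olig2 cells. In dbx1b over nkx2.2a cells the count was again 2 higher (pax6a and irx3a) and 1 lower (nkx6.2, at 147 ± 26.7 CPM in nkx2.2a cells), with a median of 1.38 against 0.00 for all genes. In olig2 over nkx2.2a cells 1 was higher (pax6a) and 1 lower (irx5a), with a median of 0.11. None of these genes passed edgeR's test over all genes. Beside this list and those below, 5.83% of all genes were higher and 3.7% lower at unadjusted p under 0.05 in dbx1b over olig2 cells. These shares were 2.67% and 3.61% in dbx1b over nkx2.2a cells, and 2.62% and 6.12% in olig2 over nkx2.2a cells.

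Of 12 ventral progenitor genes, 7 were lower and 1 higher at unadjusted p under 0.05 in dbx1b over olig2 cells, and 8 lower and 0 higher in dbx1b over nkx2.2a cells. Their medians were -2.69 and -2.57. Among them was nkx6.1, at 23.5 ± 5.18 CPM in dbx1b cells, against 238 ± 79.7 CPM in olig2 cells and 134 ± 7.07 CPM in nkx2.2a cells, which in mouse limits Dbx2. This list holds olig2 and nkx2.2a, on whose reporters the other sorts were selected, and nkx2.2a itself, in dbx1b over nkx2.2a cells, was the only gene called over all genes (log2 fold change -8.85 ± 0.83, edgeR adjusted p = 0.0312). Of 13 dorsal progenitor genes tested, 2 were higher (pax3a and zic2a) and 1 lower (olig3) in dbx1b over olig2 cells, and 0 higher and 2 lower (olig3 and ascl1a) in dbx1b over nkx2.2a cells.

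Of 13 listed V0 and V1 interneuron genes other than evx1, evx2 and en1b, 9 were frequent enough to be tested. In dbx1b over olig2 cells 2 were higher at unadjusted p under 0.05, foxd3, which in mouse V1 neurons share with the neural crest, and bhlhe22, and 0 lower. In both other comparisons 0 were higher and 0 lower. Of 15 general neuron genes, 0 were higher and 2 lower in dbx1b over olig2 cells, and 1 higher (the motor neuron gene mnx1) and 0 lower in dbx1b over nkx2.2a cells. The pan-neuronal gene elavl3 stood at 407 ± 68.9 CPM in dbx1b cells, against 1302 ± 107 CPM in olig2 cells and 569 ± 200 CPM in nkx2.2a cells. Of 13 general neural progenitor genes, 1 (notch1a) was higher and 0 lower in dbx1b over olig2 cells, and 0 higher and 1 (sox1b) lower in dbx1b over nkx2.2a cells.

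Tailbud and presomitic markers were higher with the Dbx1 genes. Of 14 tailbud and presomitic genes, 10 were higher and 0 lower at unadjusted p under 0.05 in dbx1b over olig2 cells, and 11 higher and 0 lower in dbx1b over nkx2.2a cells. Their medians were 2.84 and 2.33. Their summed level was 2159 and 2215 CPM in the dbx1b libraries, 587 and 499 CPM in the olig2 libraries, and 273 and 489 CPM in the nkx2.2a libraries. The presomitic mesoderm gene msgn1 stood at 212 ± 83.9 CPM in dbx1b cells, against 11.4 ± 0.252 CPM in olig2 cells and 15.2 ± 4.40 CPM in nkx2.2a cells. Eve1, an even-skipped gene related to evx1 and evx2 and known from the tailbud, stood at 28.5 and 77.1 CPM in the dbx1b libraries, 0.304 and 0 CPM in the olig2 libraries, and 1.58 and 0 CPM in the nkx2.2a libraries. Their part in the levels of the Dbx1, prdm12b and Evx genes was not tested.

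**Figure D4:**
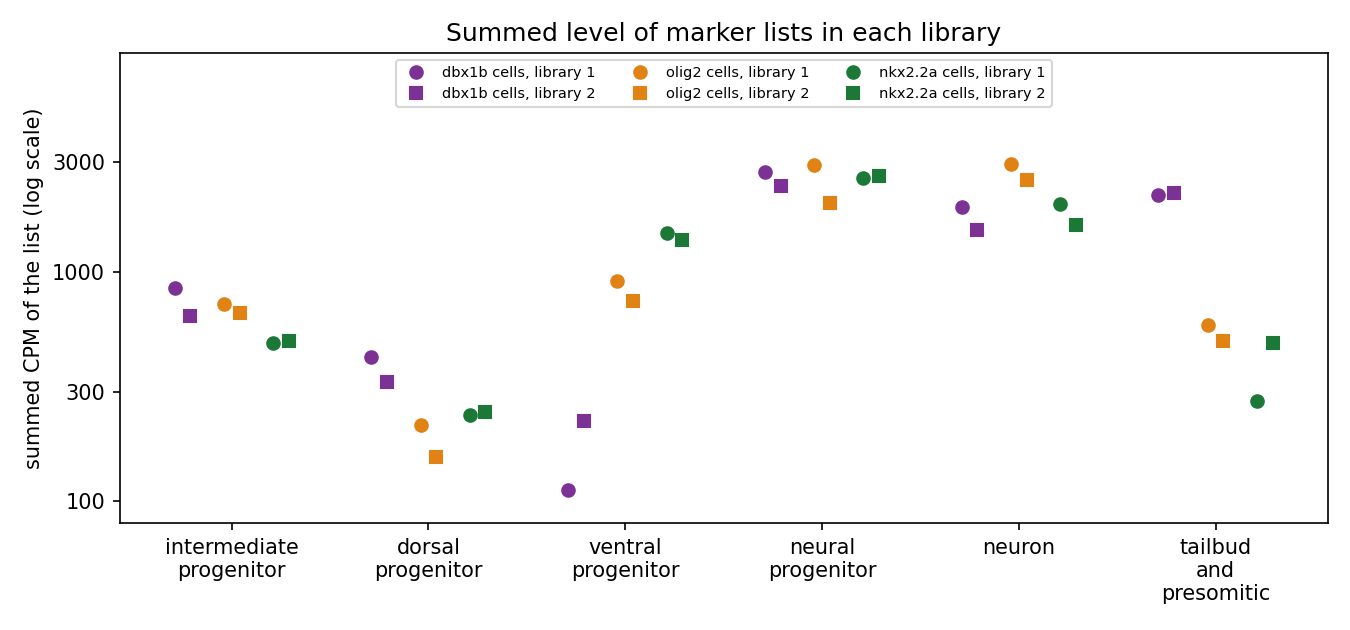
Summed CPM (log scale) of 6 marker lists in each library of the dbx1b, olig2 and nkx2.2a sorts. The tailbud and presomitic list stands at 2159 and 2215 CPM in the dbx1b libraries, above the other 4 libraries, and the ventral progenitor list at 112 and 224 CPM, below them.

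The remaining lists were of epidermis, brain, neural crest, muscle and paraxial mesoderm, and notochord and floor plate genes. At unadjusted p under 0.05, 1 or 2 genes of each were higher and at most 2 lower in dbx1b over olig2 cells. In dbx1b over nkx2.2a cells 1 brain gene and no other gene of these lists was higher, while 5 of 11 epidermis, 4 of 17 brain, 1 of 7 neural crest, 3 of 9 muscle and 4 of 9 notochord genes were lower. The summed epidermis level was 1094 and 763 CPM in dbx1b cells, 1394 and 1272 CPM in olig2 cells, and 2158 and 2250 CPM in nkx2.2a cells. The summed brain level was 491 and 581 CPM in dbx1b cells, 436 and 567 CPM in olig2 cells, and 670 and 912 CPM in nkx2.2a cells. Their part in the results was not tested.

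The genes most like dbx1b and dbx1a across the 6 libraries were looked up among 9397 other named genes with a mean of at least 5 CPM. Likeness was the root mean square distance of log2 CPM, centred on each gene's mean. It is a description over 6 libraries, with no test. The genes were picked for this likeness, so the patterns they share with dbx1b or dbx1a follow from the choice. The closest to dbx1b were tbx6 (distance 0.45), tll1 (0.49), wnt8-2 (0.50), wnt8a (0.63), nav2b (0.64) and sgol1 (0.67). The T-box gene tbx6 stood at 634 and 672 CPM in the dbx1b libraries, 116 and 63.8 CPM in the olig2 libraries, and 42.2 and 237 CPM in the nkx2.2a libraries, so that like dbx1b it was high in nkx2.2a library 2. The entries wnt8-2 and wnt8a belong to a single Wnt ligand locus, and reads may have been split between them.

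The closest to dbx1a were osr1 (0.45), fam89a (0.46), plp2 (0.56), cyp26a1 (0.63), hbae3 (0.70) and ta (0.71). They include ta, the brachyury gene of tailbud and notochord, at 143 and 235 CPM in the dbx1b libraries, 8.52 and 48.1 CPM in the olig2 libraries, and 20.2 and 4.54 CPM in the nkx2.2a libraries. They also include cyp26a1, which encodes an enzyme that breaks down retinoic acid, at 344 and 246 CPM in the dbx1b libraries, 12.5 and 71.6 CPM in the olig2 libraries, and 30.6 and 21.2 CPM in the nkx2.2a libraries. Like dbx1a, for likeness to which they were picked, both were higher in olig2 library 2 than in olig2 library 1. Of the 4 genes described here that reached this level beside dbx1b, prdm12b was the closest to it (0.99, rank 39 of 9397), ahead of sp8b (1.72), dbx1a (1.90, rank 4405) and sp8a (2.36). The genes dbx1b and dbx1a thus shared their high level in the dbx1b sort and differed in which ventral libraries held more of them.

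**Figure D5:**
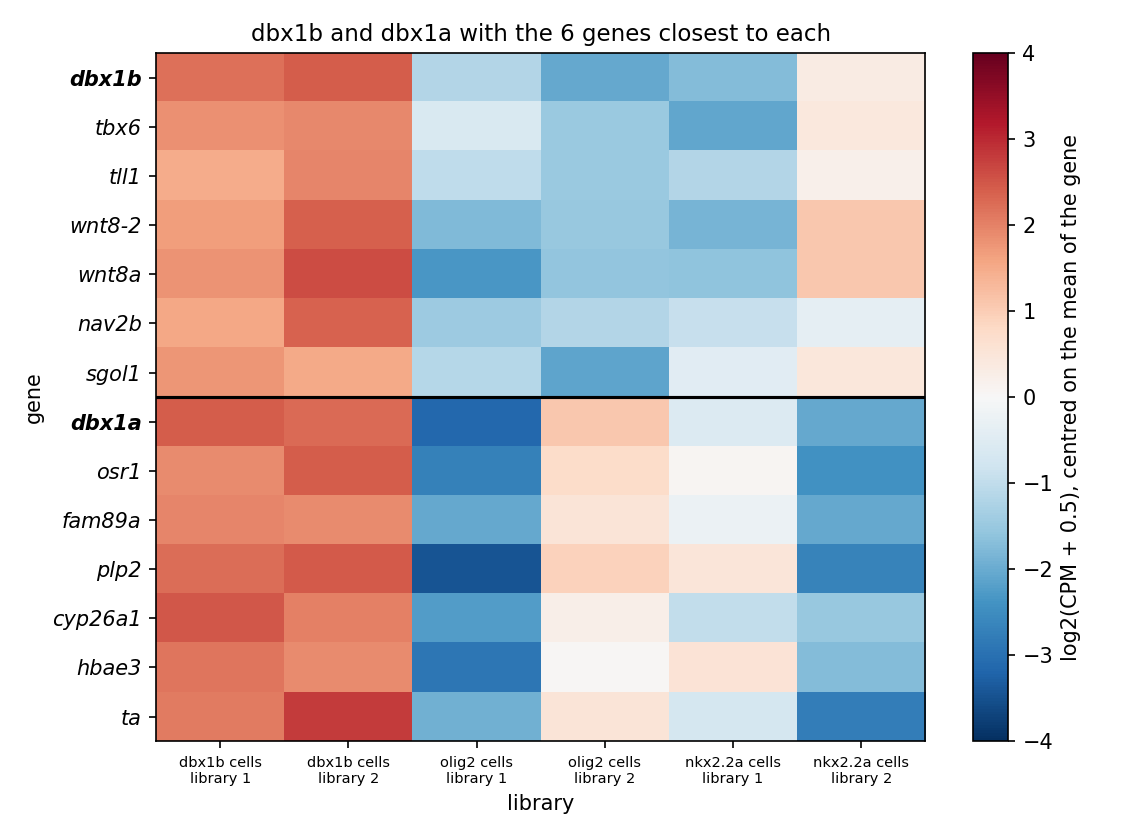
Centred log2(CPM + 0.5) in each library for dbx1b (top block) and dbx1a (bottom block), each with the 6 genes closest to it; red is above and blue below the gene's own mean. All 14 genes are high in both dbx1b libraries, the dbx1b block is next highest in nkx2.2a library 2, and in the dbx1a block nkx2.2a library 2 and olig2 library 1 are low.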

How the data were processed

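The deposited counts are the authors' mapped reads for each RefSeq transcript. Every count is even, so both mates of a fragment were counted. Bowtie 1.1.1, FastQC 0.11.3 and the build GRCz10 are named, without roles, per the submitters' processing notes. Unmapped reads, 66.6% to 80.6% of a library, were left out of its size. The deposited FPKM values are the authors' own, and all 326622 equalled those recomputed from the counts within a relative 1e-06. Counts, and FPKM values, were summed over the transcripts of a symbol. The authors' table of mean FPKM values and ratios was not used.

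Sorts were compared by the quasi-likelihood test of edgeR 4.0.16 in R 4.3.3, with filterByExpr (minimum count 10), TMM, 1 mean per sort over 6 libraries, with Benjamini-Hochberg adjustment over 19129 genes. The common dispersion was 0.779 with 3 residual degrees of freedom. The test itself gives no standard errors or intervals. Those printed were computed from its log2 fold change, F statistic and degrees of freedom. The fit was tested on simulated data. P-values measure the spread between these libraries, which may be technical. DESeq2 1.42.0, other scalings and filters, a block, the 4 libraries compared, single transcripts, and each library left out were alternatives. Fragments in place of reads, and the leave-outs of the count of genes highest in dbx1b cells, were added after seeing the data.

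The genes and lists were chosen with earlier results of these data known. Named genes were the 9 genes given, up to 3 genes per list and comparison with the smallest p among those under 0.05 before adjustment, of which those beside a result are printed, and the 6 genes closest to dbx1b and dbx1a (log2 CPM with prior count 2). The genes eng1a, eng2a, eng2b, pax6b, eve1, sox3, sox19a and sox1a were named after their values were seen. Coordinates and sequences are not given, since no table of the authors' build was used here.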

Additional observations from a re-analysis of the deposited data

How the results depend on the processing

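Leaving out a library, changing the scaling or filter, or counting fragments left the direction of dbx1a, dbx1b and prdm12b over both ventral sorts, and of sp8a in all 3 comparisons, as it was. The directions that turned belonged to differences within the spread of the libraries. For sp8b in dbx1b over olig2 cells the log2 fold change was -0.0482 with RLE scaling, -0.0437 with no composition scaling, -0.0482 with DESeq2, -0.0007 without a filter, -0.0026 with only the 4 libraries compared, -0.0176 with fragments in place of reads, and -0.53 to 0.42 with a library left out. For evx1 in dbx1b over nkx2.2a cells it ranged from -0.18 to 2.25 with a library left out. In olig2 over nkx2.2a cells it ranged from -2.26 to 2.31 for dbx1a, from -1.91 to 0.17 for dbx1b and from -1.35 to 0.40 for prdm12b. The cause was not tested.

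The number of genes called over all genes depended on the tool. For dbx1b over olig2, dbx1b over nkx2.2a and olig2 over nkx2.2a cells, DESeq2 called 695, 379 and 567 genes and edgeR without a filter 292, 238 and 233, against 0, 1 and 0 (1823, 1200 and 1673 at unadjusted p under 0.05). With a library left out the counts were 0 to 7, 0 to 65 (43 without olig2 library 1 and 65 without olig2 library 2) and 0 to 6. In dbx1b over olig2 cells edgeR called 2 genes on fragments. There evx1 was not tested, and 3 in place of 4 of the genes described here were at unadjusted p under 0.05. Of all genes, 1718 in place of 1823 were. In dbx1b over nkx2.2a cells it called 0 without composition scaling, 2 on the 4 libraries compared and 0 single transcripts. The number of members at unadjusted p under 0.05 changed with some libraries left out in each comparison, and so did that of all genes.

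Same-numbered libraries did not deviate together (correlations of -0.01 to 0.02). With 2 libraries per sort this cannot show whether the samples were paired. With the replicate number as a block, edgeR called 3 genes in dbx1b over olig2 cells. Of the genes described here, 2 in place of 4 were then at unadjusted p under 0.05, against 1442 in place of 1823 of all genes. Genes with fewer than 3 fragments in a library could not be told from absent ones at this depth, which touches evx1, evx2 and en1b in olig2 cells, and evx2 and en1b in nkx2.2a library 2.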
